A study of Mus musculus with 12 samples.

Results

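Gasdermins are proteins that, once cut by a protease, free an amino-terminal part that inserts into membranes and forms pores, through which cytokines leave and cells can lyse. Gsdmd is the gasdermin cut by the inflammatory caspases downstream of inflammasomes. Gsdma is known from skin and upper gut epithelium and can be cut by a streptococcal protease, and human GSDMC can be cut by caspase-8. In mouse the Gsdmc gene is a tandem set of copies, known from gut epithelium, where type 2 cytokines raise it.

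The 5 genes described here are Gsdmc, Gsdmc2, Gsdmc3, Gsdma and Gsdmd, of 48795 Ensembl identifiers in the count table. They were selected on their levels in these libraries, where the Gsdmc genes and Gsdma moved in opposite directions with SCA1, so the values along SCA1 below are a description with no test. All 5 had a row and passed the filter on low counts. RNA was measured in 12 libraries of luminal prostate cells taken from C57BL/6 mice, wild type and 6 to 8 weeks old. Cells negative for CD31, CD45 and Ter119, which mark endothelium, leukocytes and red cells, were sorted by the surface proteins LY6D and SCA1 (encoded by Ly6a). This gave LY6D+ and LY6D- cells with SCA1 at low, intermediate (int) or high level, which makes 6 populations with 2 biological replicates each. Libraries were made with a kit that reads the ends of polyadenylated RNA, so a count is a tally of end tags and nearly independent of transcript length. Levels are given as CPM, in which each count is divided by its own library's total, corrected by a trimmed-mean factor.

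The Gsdmc copies lie side by side. On GRCm38 (GENCODE M21) Gsdmc spans 15:63775968-63808759, Gsdmc2 15:63824346-63845177 and Gsdmc3 15:63857724-63878558, all on the minus strand, with Gsdmc4 next to them at 15:63891264-63912297. Gsdmd lies farther along the same chromosome at 15:75862327-75867408 on the plus strand, and Gsdma at 11:98664351-98677708 on the plus strand. The coding sequences of Gsdmc2 and Gsdmc3 were 97.1% identical over aligned bases, against 85.9% for Gsdmc with Gsdmc2 and 86.0% for Gsdmc with Gsdmc3. Gsdma and Gsdmd shared 52.0% of aligned coding bases, and Gsdmc and Gsdma 46.4%. The stretch of 90 coding bases that differs most among the copies shows how far they can be told apart. Capitals mark positions that differ among the 4 copies, and Gsdmc2 and Gsdmc3 are identical there.
Gsdmc: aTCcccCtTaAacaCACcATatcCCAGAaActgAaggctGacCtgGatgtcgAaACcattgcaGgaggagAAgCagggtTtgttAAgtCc
Gsdmc2: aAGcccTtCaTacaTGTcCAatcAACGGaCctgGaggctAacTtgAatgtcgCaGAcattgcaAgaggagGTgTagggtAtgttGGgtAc
Gsdmc3: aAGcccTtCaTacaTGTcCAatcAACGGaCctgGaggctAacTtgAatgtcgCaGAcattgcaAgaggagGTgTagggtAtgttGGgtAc

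The stretch where Gsdmc2 and Gsdmc3 differ most holds 13 differences between them in 90 bases. It was added after the first stretch had been seen.
Gsdmc2: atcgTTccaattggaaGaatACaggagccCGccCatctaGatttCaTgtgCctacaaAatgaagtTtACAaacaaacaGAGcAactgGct
Gsdmc3: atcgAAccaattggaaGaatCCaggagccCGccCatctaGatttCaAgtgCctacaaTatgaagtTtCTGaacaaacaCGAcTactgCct

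End tags come from the last part of a transcript, where the copies are close. Of the 50-base words in the last 500 bases, 29.3% for Gsdmc, 33.3% for Gsdmc2 and 38.8% for Gsdmc3 also occurred in a transcript of another copy, against none for Gsdma and Gsdmd. The read length, the strand setting and the treatment of reads with several matches are unknown here. Values of single Gsdmc copies are therefore uncertain, and the sum of Gsdmc, Gsdmc2, Gsdmc3 and Gsdmc4 is given beside them. The RefSeq promoter table for GRCm38.p6 held 1 of the 5 genes, Gsdmc3. Its promoter, 15:63878559-63878808 on the minus strand, is shown because the copies were read together across the populations, with the letters TATATAAG in capitals.
Gsdmc3: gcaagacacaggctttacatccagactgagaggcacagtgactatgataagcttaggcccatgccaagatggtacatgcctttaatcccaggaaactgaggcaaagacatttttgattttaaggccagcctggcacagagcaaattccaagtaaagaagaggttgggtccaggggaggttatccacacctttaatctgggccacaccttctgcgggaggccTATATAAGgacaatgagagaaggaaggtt

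That word, searched for after the sequence was seen, starts 29 bases before the transcript start and occurs in 0.935% of 32851 promoters on either strand. The words TATAAA (in 12.4% of the promoters), TTCNNNGAA (7.02%), TGANTCA (6.75%) and AGAACA (16.1%) have no match in this window on either strand. Neither does the STAT6 motif, TTC and GAA set 4 bases apart (5.85%).

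Libraries held 8436185 to 20022077 counts, and 7512 to 12202 genes reached 10 counts. The genes of the sorted proteins followed the labels: Ly6d had 36.95 to 397.3 CPM in LY6D+ and 0.433 to 3.85 CPM in LY6D- libraries, and Ly6a levels were ordered low, int, high within each LY6D state without overlap. Luminal keratins and secretory genes were read in every library, as were 8 basal markers, which summed to 2090 to 4306 CPM in LY6D+ and 86.9 to 1902 CPM in LY6D- libraries. Some pairs of libraries shared part of their content. For this step CPM and shares were taken from plain library totals, without the trimmed-mean factor. Genes were used that had 30 CPM or more in one library of a pair and a lower level in the other. They were also under 0.5 CPM in at least 9 of the 10 libraries outside the pair. In some pairs these genes stood in the other library at a narrow share of their level in the first. Of 132 ordered pairs, 12 had at least 10 such genes and a median share of 1% or more, up to 10.8%. The highest was from LY6D- SCA1high replicate 1 into LY6D- SCA1low replicate 2 (10.8%, 23 genes), followed by LY6D+ SCA1high replicate 2 into LY6D+ SCA1int replicate 2 (6.85%, 66 genes). LY6D- SCA1low replicate 1 stood in LY6D- SCA1high replicate 2 at 5.01% (61 genes). Multiplying the source's gasdermin level by this share gives the count the sharing alone would bring, and the main results below that rest on such libraries are also given after subtraction. How the sharing arose was not tested, and the subtraction was devised after the data were seen. It removed the median share as a fixed amount, so every SE and p after subtraction leaves out the uncertainty of the shares.

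The Gsdmc copies were highest in SCA1high cells and lowest in SCA1low cells, in LY6D+ and in LY6D- cells. Their sum was 4.29 and 27.8 CPM in LY6D+ SCA1low, 16.9 and 106.8 CPM in LY6D+ SCA1int, and 297.9 and 1296 CPM in LY6D+ SCA1high libraries. In LY6D- cells it was 46.1 and 142.1 CPM at SCA1low, 419.0 and 269.9 CPM at SCA1int, and 963.8 and 625.7 CPM at SCA1high. Both SCA1high libraries lay above both SCA1low libraries in each LY6D state, and the replicates of LY6D+ cells differed several-fold at every SCA1 level.

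Gsdmc itself had 0.766 and 4.36 CPM in LY6D+ SCA1low, 2.64 and 21.02 CPM in LY6D+ SCA1int, and 45.9 and 231.2 CPM in LY6D+ SCA1high libraries. In LY6D- cells it had 11.8 and 31.7 CPM at SCA1low, 129.0 and 42.2 CPM at SCA1int, and 210.4 and 164.3 CPM at SCA1high. In the order of the means, LY6D- SCA1high and LY6D+ SCA1high came first with overlapping ranges, and LY6D- SCA1int, next in the order, overlapped LY6D+ SCA1high.

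Gsdmc2 had 1.46 and 10.7 CPM in LY6D+ SCA1low, 5.72 and 41.8 CPM in LY6D+ SCA1int, and 99.3 and 544.4 CPM in LY6D+ SCA1high libraries. In LY6D- cells it had 17.4 and 57.6 CPM at SCA1low, 162.0 and 82.1 CPM at SCA1int, and 401.2 and 230.4 CPM at SCA1high. The 2 SCA1high populations overlapped, and LY6D- SCA1int lay between LY6D- SCA1high and LY6D- SCA1low with no overlap with either.

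Gsdmc3 had 1.99 and 12.2 CPM in LY6D+ SCA1low, 8.09 and 41.3 CPM in LY6D+ SCA1int, and 138.6 and 490.2 CPM in LY6D+ SCA1high libraries. In LY6D- cells it had 16.3 and 52.5 CPM at SCA1low, 127.8 and 145.4 CPM at SCA1int, and 351.3 and 209.0 CPM at SCA1high. Its order was that of Gsdmc2. For all 3 copies, LY6D- SCA1low, LY6D+ SCA1int and LY6D+ SCA1low came last, each overlapping the next in the order.

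**Figure D1:**
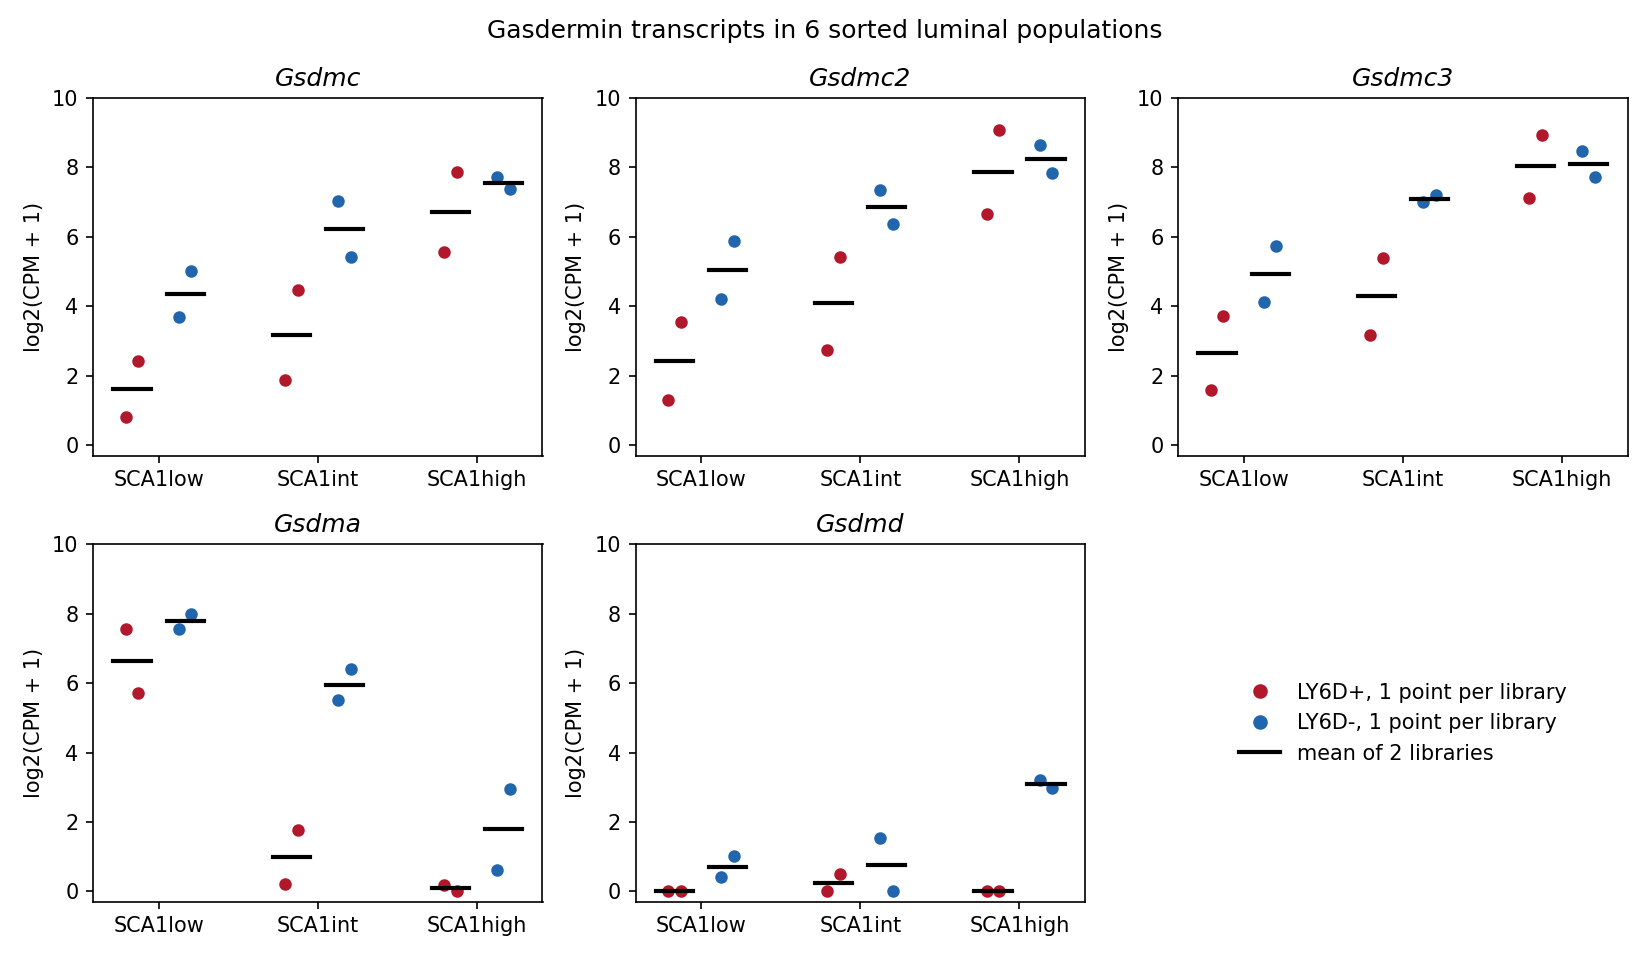
Levels of the 5 genes, as log2(CPM + 1), in each library by SCA1 level (x axis), with LY6D+ cells in red left of LY6D- cells in blue and a bar at the mean of 2 libraries. The Gsdmc copies climb towards SCA1high, Gsdma is highest at SCA1low, and Gsdmd is highest in LY6D- SCA1high libraries at 8.29 and 6.86 CPM.

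Fitted with edgeR as SCA1high over SCA1low, averaged over LY6D, the log2 fold changes were 4.43 for Gsdmc, 4.40 for Gsdmc2, 4.24 for Gsdmc3 and -8.12 for Gsdma. After subtraction they were 7.05, 7.71, 6.64 and -9.53 in the same order. In that comparison 1.21% of 15270 genes passed an adjusted p of 0.05, and nothing is read from the members' standing there, since it chose them. Markers of other cell types were also higher at SCA1high. All 8 endothelial markers had a positive fold change there (4 called by edgeR, median 2.92 on the log2 scale), as did all 8 basal markers (3 called, median 1.66), beside a median of 0.15 over all genes. So did 8 of 9 fibroblast and smooth muscle markers (median 2.87) and 5 of 5 stratified keratinocyte markers (2.10), with no call. No secretory luminal, seminal vesicle or urothelial marker tested was positive. In LY6D- cells the basal markers summed to 1552 and 1902 CPM at SCA1int, above 632 and 516 CPM at SCA1high. The part of these lists in the levels of the Gsdmc copies was not tested. By steps, the log2 difference of the summed copies in LY6D+ cells was 1.95 for int over low and 3.69 for high over int. In LY6D- cells it was 1.87 for int over low and 1.21 for high over int. Subtraction changed the steps that involve shared levels, to 0.22 and 7.98 in LY6D+ cells and to 4.55 and 1.32 in LY6D- cells. With shares resting on 20 or more genes they were 1.53 and 5.99 in LY6D+ cells and 3.52 and 1.32 in LY6D- cells.

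Much of the low end of these series was at the level shared with other libraries. LY6D+ SCA1int replicate 2 held 2018 counts of the summed copies, where the shared levels alone give 2008 (1608 to 2514 at the quartiles of the shares). LY6D- SCA1low replicate 2 held 1641, where they give 1601, and LY6D+ SCA1low replicate 2 held 357, where they give 340. LY6D+ SCA1int replicate 1 held 314 against 243, and LY6D- SCA1low replicate 1 held 429 against 242. After subtraction the sum was 3.37 and 1.63 CPM in LY6D+ SCA1low, 3.94 and 1.75 CPM in LY6D+ SCA1int, and 20.1 and 3.55 CPM in LY6D- SCA1low libraries. LY6D+ SCA1int and LY6D+ SCA1low libraries then overlapped, while LY6D- SCA1int remained at 269.9 CPM or more. In the SCA1high and LY6D- SCA1int libraries, sharing alone gives at most 0.234% of the Gsdmc counts.

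**Figure D2:**
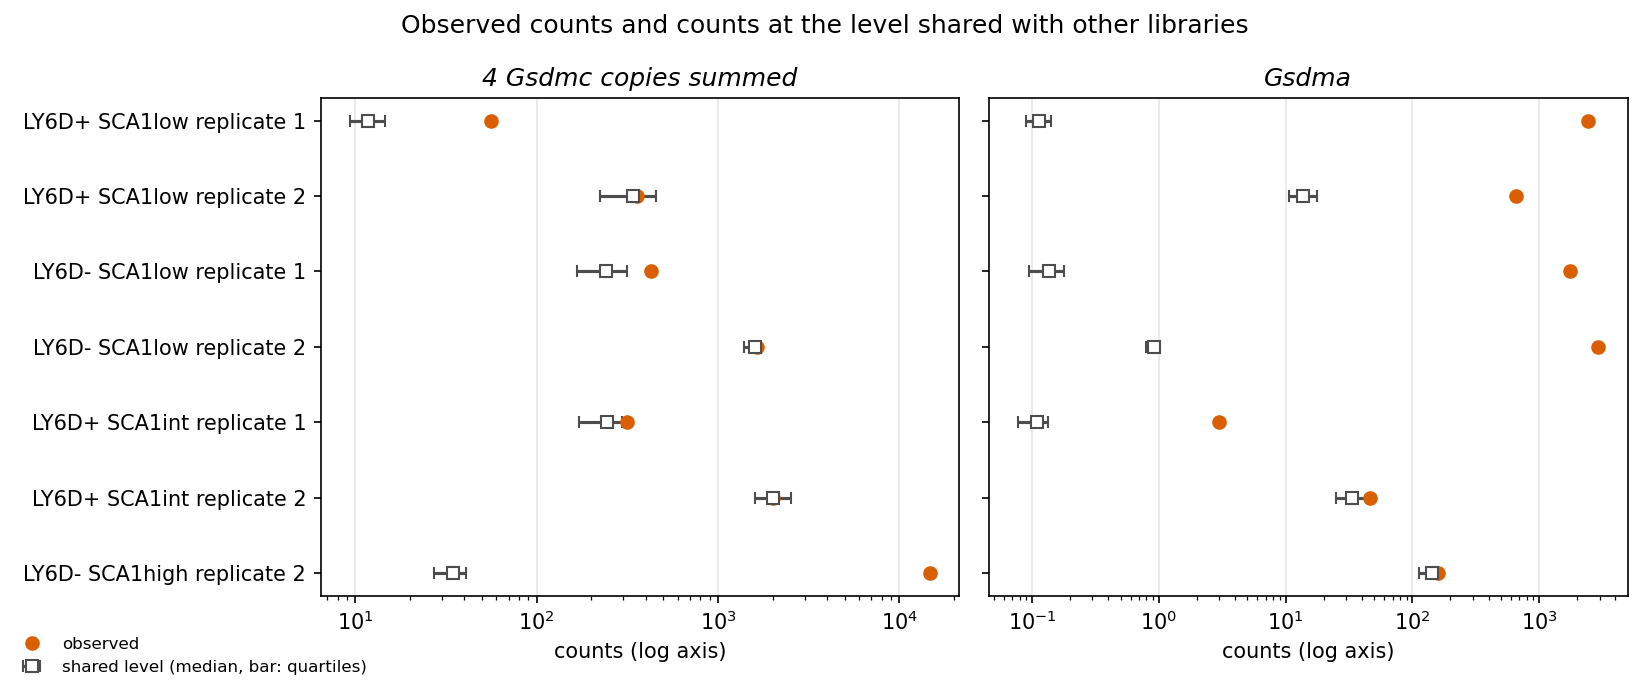
Counts (log axis) of the 4 summed Gsdmc copies and of Gsdma in 7 libraries that share content with others, with observed counts as filled points and the counts at the shared level as open squares with quartile bars. For the Gsdmc copies the points of LY6D+ SCA1low replicate 2, LY6D- SCA1low replicate 2 and LY6D+ SCA1int replicate 2 lie on their squares, and for Gsdma LY6D- SCA1high replicate 2 (159 observed, 142 at the shared level) does.

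Gsdmc2 and Gsdmc3 made up most of the summed counts in every library, and Gsdmc4 the least. Gsdmc held 15.4% to 30.8% of the sum and Gsdmc3 30.5% to 53.9%. The 2 LY6D- SCA1int replicates differed most. Replicate 1 had 30.8% Gsdmc (95% Wilson interval 29.8 to 31.8) and replicate 2 15.6% (14.4 to 17.0), while Gsdmc3 was 30.5% and 53.9%. These intervals cover counting error only. The share of Gsdmc4 was 4.75% and 2.34% in LY6D+ SCA1high, and 0.0973% and 3.53% in LY6D- SCA1high libraries. In LY6D- SCA1low replicate 2, whose summed count was near the shared level, the make-up was close to that of LY6D- SCA1high replicate 1. It was 22.3% Gsdmc, 40.5% Gsdmc2 and 37.0% Gsdmc3, beside 21.8%, 41.6% and 36.5% in LY6D- SCA1high replicate 1. LY6D- SCA1low replicate 1 (25.6%, 37.8% and 35.4%) and LY6D+ SCA1int replicate 2 (19.7%, 39.1% and 38.7%) were also near these values. Where the counts came from was not tested.

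**Figure D3:**
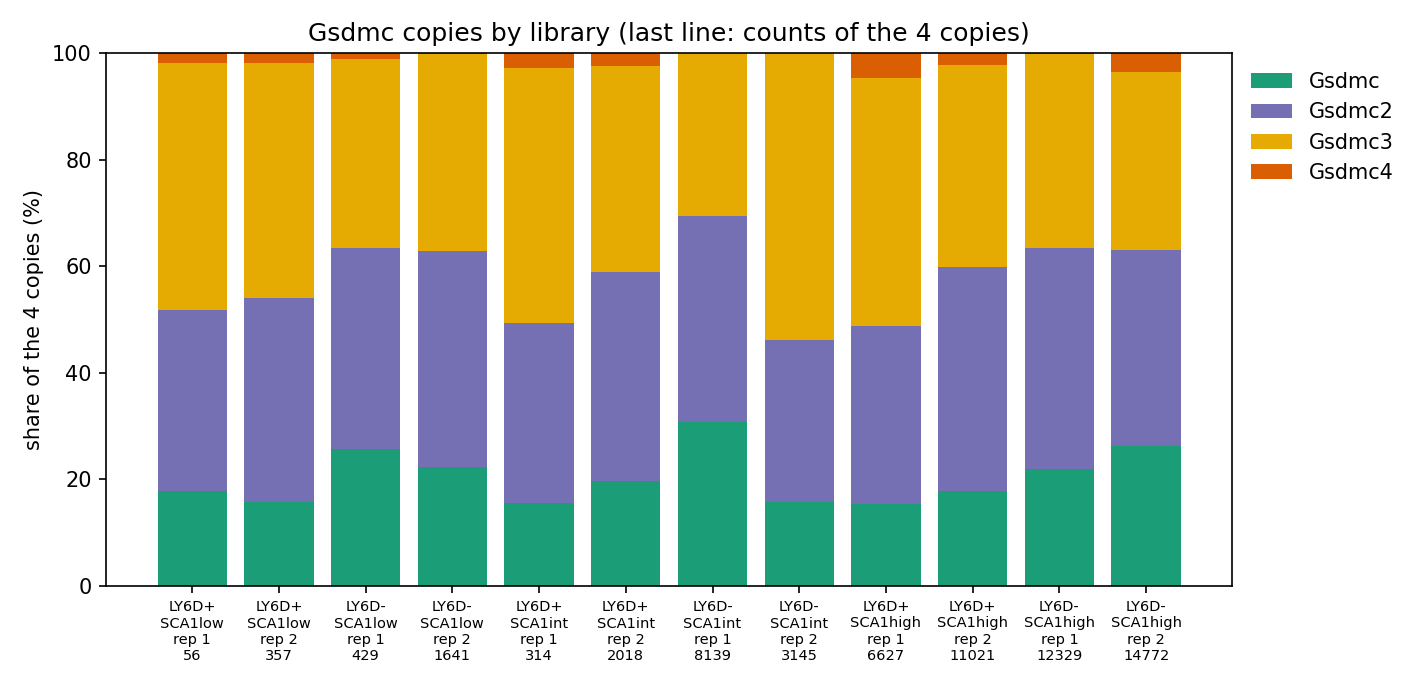
Share of the 4 Gsdmc copies (% of their summed counts, stacked from 0) in each library, ordered by SCA1 level, with LY6D+ left of LY6D- and the summed count under each bar. Gsdmc3 reaches 53.9% in LY6D- SCA1int replicate 2, against 30.5% in replicate 1 of that population.

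Gsdma ran the other way. It had 186.1 and 51.6 CPM in LY6D+ SCA1low, 0.162 and 2.44 CPM in LY6D+ SCA1int, and 0.135 and 0 CPM in LY6D+ SCA1high libraries. In LY6D- cells it had 189.5 and 254.6 CPM at SCA1low, 44.6 and 83.9 CPM at SCA1int, and 0.547 and 6.74 CPM at SCA1high. LY6D- SCA1low lay above every other library. LY6D+ SCA1low and LY6D- SCA1int overlapped, and the LY6D- SCA1int libraries lay above every LY6D+ SCA1int and SCA1high library. Of the higher LY6D- SCA1high value, sharing alone gives 142 of 159 counts, and 0.7201 CPM was left after subtraction. Sharing also gives 33.4 of the 46 Gsdma counts in LY6D+ SCA1int replicate 2. Secretory luminal markers, the proteins that differentiated prostate luminal cells make, were also highest at SCA1low and lowest at SCA1high. The 9 markers summed to 25278 and 16179 CPM in LY6D+ SCA1low, 1605 and 2656 CPM in LY6D+ SCA1int, and 1488 and 1159 CPM in LY6D+ SCA1high libraries. In LY6D- cells they summed to 96140 and 54874 CPM at SCA1low, 30860 and 36280 CPM at SCA1int, and 2780 and 4851 CPM at SCA1high, with no marker at 0 in any library. Unlike Gsdma, this sum was higher in both LY6D- SCA1int libraries than in both LY6D+ SCA1low libraries. Single markers differed in this. Spink1, the largest part of the sum, averaged 25360 CPM in LY6D- SCA1int and 12980 CPM in LY6D+ SCA1low libraries. Pbsn averaged 2800 CPM in LY6D- SCA1int and 3455 CPM in LY6D+ SCA1low libraries, so its means had the order of those of Gsdma. The part of the secretory markers in the Gsdma result was not tested. In sorted populations such as these, fewer expressing cells and less RNA per cell cannot be told apart.

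Gsdmd was read mainly in LY6D- cells. It had 8.29 and 6.86 CPM in LY6D- SCA1high libraries, from 106 and 162 counts, and 0 counts in both LY6D+ SCA1high libraries. With a floor of 3 counts over the population, the pooled counts were at least 75.5-fold lower in LY6D+ SCA1high cells. This bound covers counting only and leaves out the spread between libraries. The edgeR test within SCA1high did not call Gsdmd (adjusted p = 0.405). The other LY6D- libraries had 0.323 and 1.04 CPM at SCA1low and 1.905 and 0 CPM at SCA1int, and the other LY6D+ libraries 0 CPM except LY6D+ SCA1int replicate 2 at 0.424 CPM. Sharing alone gives 13.8 counts in LY6D- SCA1low replicate 2, where 12 were observed, and 4.85 in LY6D+ SCA1int replicate 2, where 8 were. Endothelial markers were also highest in LY6D- SCA1high libraries, although the sort removed CD31 cells. Their 8 genes summed to 209.2 and 430.3 CPM in LY6D+ SCA1high libraries against 3273 and 3638 CPM in LY6D- SCA1high libraries. At the other levels they summed to 15.6 to 229.4 CPM in LY6D+ and 205.3 to 1322 CPM in LY6D- cells, with 1 marker at 0 in 1 library. In LY6D- SCA1int replicate 2 they summed to 1322 CPM beside 0 Gsdmd counts, and in replicate 1 to 983.4 CPM beside 37. Leukocyte markers, of which 7 to 11 of 13 were at 0, summed to 6.67 to 90.005 CPM. The part of endothelial RNA in the Gsdmd result was not tested.

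The stated reason for choosing the Gsdmc genes and Gsdma was their direction along SCA1, not the comparison of LY6D+ with LY6D- cells. No reason was stated for Gsdmd. The choice was made with earlier results of these data known, so the LY6D tests may not be free of it. Averaged over SCA1, the quasi-likelihood test of edgeR, adjusted by Benjamini-Hochberg, called 2.48% of 15270 genes (1.21% lower in LY6D+ cells), and Gsdma was the only one of the 5. Gsdma fell in LY6D+ cells, with a log2 fold change of -3.94 ± 0.80 (SE) and an adjusted p of 0.0051, over 6 libraries each. Both LY6D+ libraries lay below both LY6D- libraries at every SCA1 level. Subtraction left it at -3.68 ± 0.77 with an adjusted p of 0.0150 by edgeR. The call was lost with limma-trend on the deposited normalised values (-2.58, adjusted p = 0.131). Marker lists moved in this comparison too, beside a median of 0.027 over all genes. All 8 basal markers had a positive log2 fold change (5 called, median 3.34), and their sum was higher in every LY6D+ library than in any LY6D- library. Of 9 secretory luminal markers 5 were called lower in LY6D+ cells (median -1.71), and of 8 endothelial markers 6 were (median -3.17). The part of these lists in the differences of Gsdma and of the Gsdmc copies was not tested.

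No single Gsdmc copy passed edgeR's test, though all pointed the same way. DESeq2 called all 3, but it called 2169 genes in this comparison, beside 379 with edgeR. The log2 fold changes in LY6D+ cells were -2.12 ± 0.67 for Gsdmc (edgeR adjusted p = 0.0805), -1.65 ± 0.55 for Gsdmc2 (0.0952) and -1.53 ± 0.51 for Gsdmc3 (0.0974). The summed copies fell in LY6D+ cells by 1.67 ± 0.44 on the log2 scale, with an edgeR adjusted p of 0.0379. With limma-trend the sum was not called (-1.98, adjusted p = 0.116). After subtraction it stood at -3.12 ± 0.44 (edgeR adjusted p = 0.00033), with the shares taken as exact. Gsdmd had a fitted adjusted p of 0.0956, and its fitted fold depends on the handling of libraries at 0.

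Within a single SCA1 level none of the 5 genes passed edgeR's test. It called 0.472% of genes at SCA1low, 0.203% at SCA1int and 0.262% at SCA1high, and 1840, 942 and 1790 genes there had an unadjusted p below 0.05. The summed copies differed by -2.55 ± 0.79 at SCA1low (edgeR adjusted p = 0.231), by -2.48 ± 0.79 at SCA1int (0.661) and by 0.00 ± 0.74 at SCA1high (1.0). Gsdma differed by -0.90 ± 1.20 at SCA1low (edgeR adjusted p = 0.757), by -5.62 ± 1.46 at SCA1int (0.228) and by -5.31 ± 1.53 at SCA1high (0.221). After subtraction the sum was -6.79 ± 0.90 at SCA1int (edgeR adjusted p = 0.00049), and -4.79 ± 0.93 (0.0262) when only shares resting on 20 or more genes were subtracted. With the minimum of 10 genes it was -2.46 ± 0.74 at SCA1low (0.257) and -0.12 ± 0.69 at SCA1high (1.0). After subtraction Gsdma at SCA1int was -6.92 ± 1.51 with an edgeR adjusted p of 0.04997, just under the threshold, and Gsdmc3 there was -6.08 ± 1.06 with 0.00786. Neither passed with the minimum of 20 genes (edgeR adjusted p = 0.218 for Gsdma and 0.168 for Gsdmc3). At SCA1high, Gsdma without the shared counts was -2.93 ± 1.37. The SE and p after subtraction take the shares as exact, so they understate the error where most counts were removed, as in LY6D+ SCA1int replicate 2.

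Whether the LY6D difference itself changed between SCA1high and SCA1low was tested by an interaction term. It was 2.65 ± 1.60 for Gsdmc, 2.66 ± 1.34 for Gsdmc2, 2.44 ± 1.25 for Gsdmc3 and -4.41 ± 1.87 for Gsdma, on the log2 scale. None passed, with edgeR adjusted p between 0.650 and 0.677, and 0.0393% of all genes did. After subtraction the terms were 3.25 ± 1.963, 2.59 ± 2.21 and 1.76 ± 1.22 for the copies in the same order and -1.73 ± 1.70 for Gsdma, none called. No term could be fitted for Gsdmd, which had 0 counts in both LY6D+ SCA1low and both LY6D+ SCA1high libraries.

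**Figure D4:**
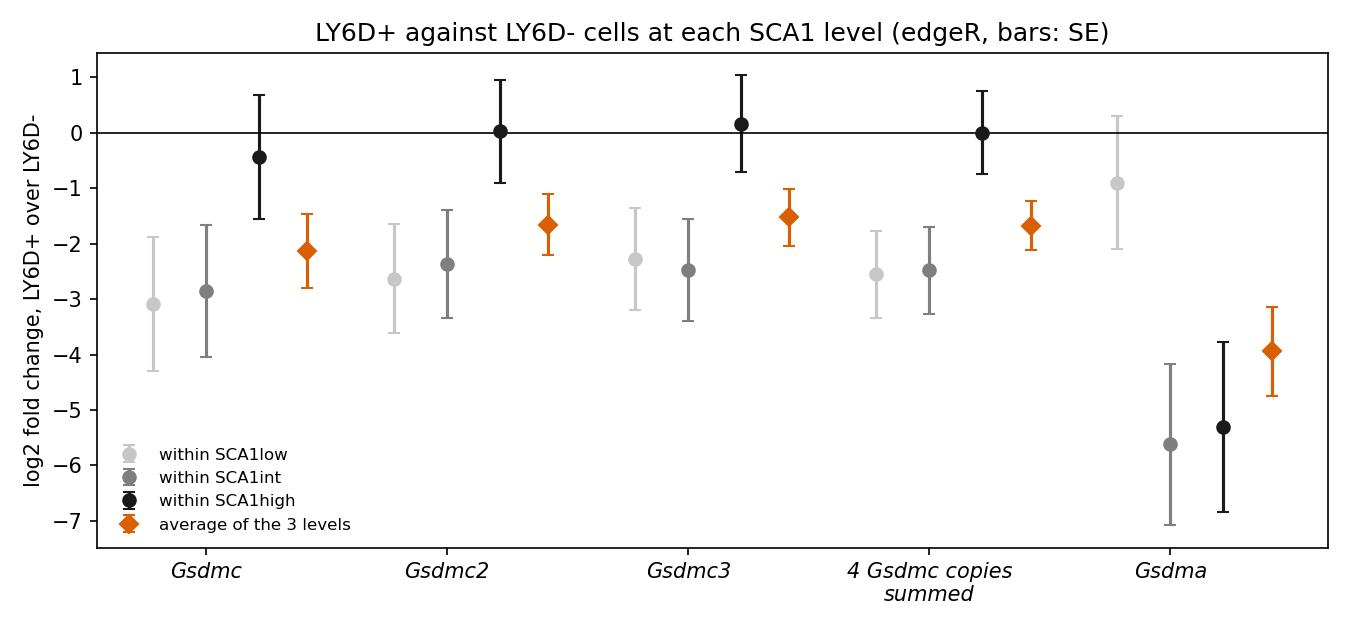
Log2 fold change of LY6D+ over LY6D- cells (edgeR, bars give the SE, 12 libraries) for the 3 Gsdmc copies, the sum of 4 copies and Gsdma, within SCA1low, SCA1int and SCA1high and averaged over them. The copies lie near 0 at SCA1high and below 0 at the other levels, and Gsdma lies near 0 at SCA1low.

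Of the gasdermin genes outside the 5, 3 passed the filter and none was called in the LY6D or the SCA1 comparison, beside 2.48% and 1.21% of all genes. Gsdmc4 was read mainly in SCA1high cells, at 14.2 and 30.3 CPM in LY6D+ and at 0.938 and 22.1 CPM in LY6D- libraries. Gsdma3, a neighbour of Gsdma with 90.5% identical coding bases, had 18.2 and 0.700 CPM in LY6D+ SCA1low, and 16.9 and 22.3 CPM in LY6D- SCA1int libraries. It stayed under 0.2 CPM in both LY6D- SCA1low libraries, where Gsdma was highest. Gsdme was read at 10.3 CPM in LY6D+ SCA1high replicate 1 and at 0 in replicate 2. Gsdma2 had 2 counts in all, and Pjvk, known for its role in hearing, had 0.

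Genes that act around gasdermins were described from lists chosen with earlier results of these data known. Averaged over SCA1, LY6D+ against LY6D- cells called 2 of 56 tested genes of 6 lists (proteases, inflammasome parts, interleukins, membrane repair, signalling upstream of Gsdmc, and regulators of Gsdmd), beside 2.48% of all genes. Irf1, a transcription factor that interferons raise, had 161.8 and 336.7 CPM in LY6D+ SCA1high and 1155 and 1245 CPM in LY6D- SCA1high libraries. It fell in LY6D+ cells by 1.35 ± 0.31 on the log2 scale (edgeR adjusted p = 0.0133). It was also higher in SCA1high than in SCA1low cells, by 1.62 ± 0.38 (edgeR adjusted p = 0.0214), as the only call of these lists there, beside 1.21% of all genes. Rraga, a lysosomal GTPase that signals amino acid supply, rose in LY6D+ cells by 1.11 ± 0.30 (edgeR adjusted p = 0.0456), with its highest level at 722.1 CPM in LY6D+ SCA1low replicate 2.

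**Figure D5:**
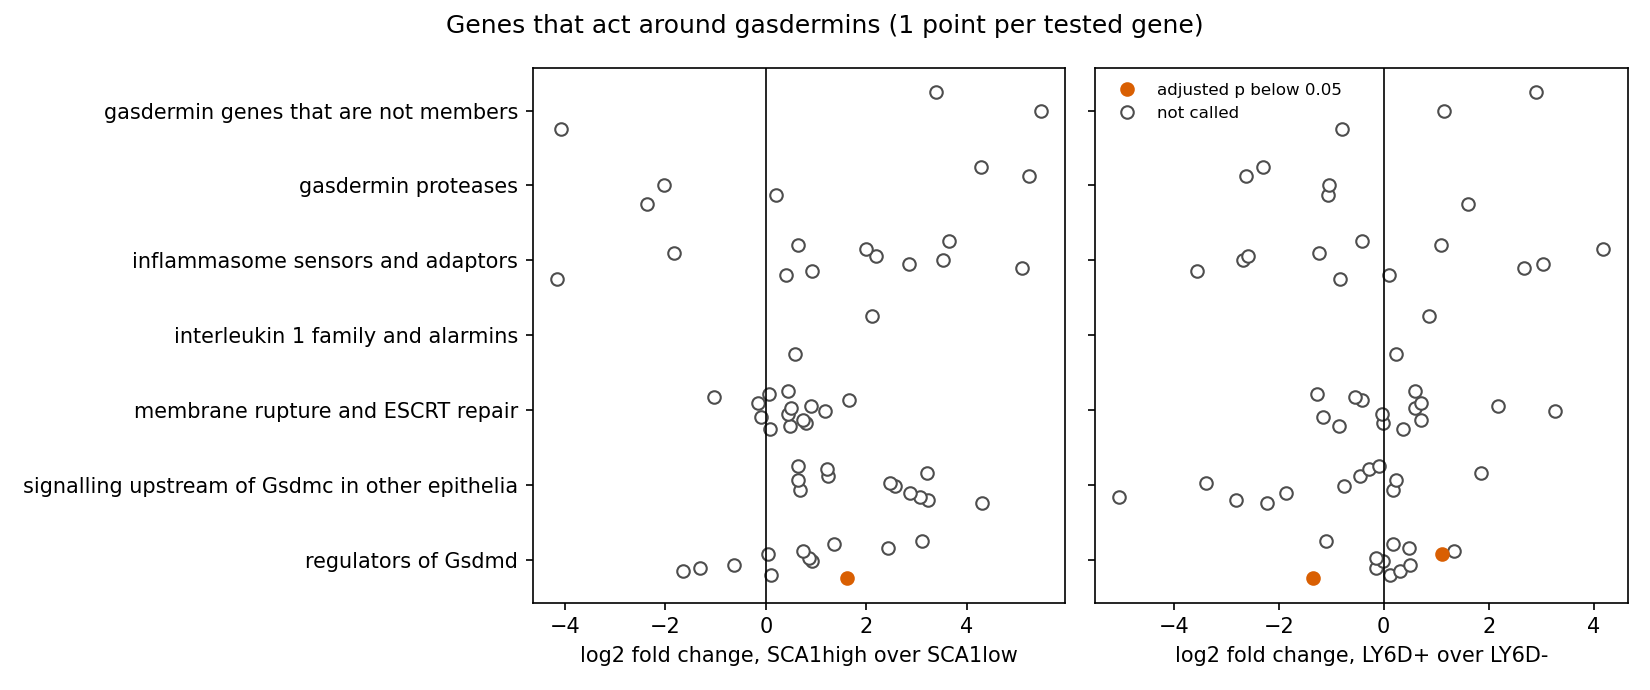
Log2 fold changes (x axes) of tested genes in 7 lists around gasdermins, SCA1high over SCA1low at left and LY6D+ over LY6D- at right, 1 point per gene, filled where the edgeR adjusted p is below 0.05. Filled points are Irf1 in both panels and Rraga at right.

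The proteases gave no call, with 5 of 10 tested. Casp1, the caspase that cuts Gsdmd and matures interleukin 1 beta, had 0 of 180068394 counts, which allows up to 0.0167 CPM over all libraries. Il1a, Il1b, Nlrp3, Nlrp1a, Nlrp1b, Gzma, Gzmb, Elane, Ctsg and Ripk3 also had 0 counts. Casp4, the mouse caspase-11 gene, was read in all libraries at 1.76 to 59.0 CPM and differed by -1.06 ± 1.07 between LY6D+ and LY6D- cells (edgeR adjusted p = 0.648). Casp8 differed by -2.30 ± 1.67 (0.481) in the same test. Ninj1, which ruptures the membrane of dying cells, differed by 0.70 ± 1.63 (0.898).

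The signalling genes known to lie upstream of Gsdmc in other epithelia gave no call either. All 12 tested had a positive log2 fold change for SCA1high over SCA1low, though Il2rg among them had no SE. Their median was 2.51, beside 0.15 over all tested genes. This lean was not particular to the list. In the same comparison 9 of 11 inflammasome genes, 11 of 14 membrane repair genes and all 8 endothelial markers (median 2.92) were positive. Of the proteases 3 of 5 were, and of the 9 secretory luminal markers none. Il4ra, a receptor subunit for interleukins 4 and 13, had a log2 fold change of 2.87 ± 1.53 (edgeR adjusted p = 0.453) and Stat6, the factor it activates, 1.23 ± 0.96 (0.615). Between LY6D+ and LY6D- cells Il4ra differed by -1.87 ± 1.20 (0.412) and Stat6 by -0.46 ± 0.77 (0.831). Irf2, which drives Gsdmd transcription, differed by 0.13 ± 0.89 in LY6D+ cells (edgeR adjusted p above 0.99).

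Genes whose levels were most alike over the 12 libraries were named by Pearson's r of log2(CPM + 1), as a description, since the libraries share populations and depth. Levels were taken before subtraction, so content shared between libraries enters r, and its part was not tested. The Gsdmc genes and Gsdma were also chosen for moving with SCA1 in these same libraries. Their likeness to genes that rise or fall with SCA1 was therefore set by that choice, and nothing is read from it. For the summed Gsdmc copies, among 8095 genes, the most alike were Trim35 (0.96), Barx2 (0.94), Slc25a48 (0.93), Ly6a (0.93), which encodes the sorted SCA1 protein, and Ebf1 (0.93). For Gsdma they were Pbsn (0.98), the probasin secreted by luminal cells, Dnajc10 (0.97), Spink1 and Mfsd2a (0.96 each). For Gsdmd they were Rasgrf2 (0.97), Map3k8 (0.97), Icam2 (0.96), Vegfc (0.95) and Lrrc32 (0.95). Outside LY6D- SCA1high Gsdmd reached at most 1.905 CPM, so its r rests mainly on the libraries of that population. Its mean log2 CPM was 0.77, below the minimum of 3 set for the genes compared with it. Icam2 averaged 0.104 CPM in LY6D+ SCA1high and 81.7 CPM in LY6D- SCA1high libraries.

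Of 18 protein-coding neighbours, the 3 nearest on each side of each locus, 11 were tested and none was called in the LY6D or the SCA1 comparison. Of all genes, 2.48% and 1.21% were called there, so 11 genes without a call say little about these loci. Fam49b, 16800 bases beyond Gsdmc4, differed by -1.10 ± 0.96 in LY6D+ cells (edgeR adjusted p = 0.576). Myc, the nearest protein-coding gene on the other side at a distance of 1785594 bases, differed by 2.59 ± 1.62 (0.397). Psmd3, a proteasome subunit 4846 bases from Gsdma, differed by -0.12 ± 0.42 (0.952), and Eef1d, near Gsdmd, by 0.43 ± 0.37 (0.569). Csf3, 23555 bases from Gsdma, differed by -3.71 ± 1.38 (0.124).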

How the data were processed

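STAR 2.5.1 and featureCounts are among the tools that the submitters' processing notes name, with cutadapt 1.9.1, Picard 1.96, SAMtools 1.3.1 and build mm10. Settings, read length and strand use were not given in the sources used here. The authors deposited raw counts per gene, used for the main tests, and normalised signal values, which differ from the deposited counts by a constant factor within each library and served for 1 alternative. Libraries were made from 10 to 20 ng of total RNA, per the labels' protocols. With 2 libraries per population, precision was limited by the spread between libraries (biological coefficient of variation 1.28).

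Symbols came from a table of gene names (48349 of 48795 identifiers). Counts were fitted with edgeR 4.0.16 in R 4.3.3 (TMM scaling, filterByExpr by population, 1 mean per population over all 12 libraries, quasi-likelihood test, Benjamini-Hochberg over 15270 genes, threshold 0.05). The fit was also run on simulated counts with much less spread between libraries than here and no shared content. That run therefore does not measure the error rates of the fit in these data. Alternatives were other scalings, no filter, DESeq2 1.42.0, limma 3.58.1, a replicate block, left-out libraries, summed copies and the subtraction of shared levels. The genes and lists were chosen with earlier results of these data known. Named beyond the 5 genes were the other gasdermins, called list genes and direct partners, 3 neighbours on each side and the 5 genes most alike whose mean log2 CPM was 3 or more, and 2 genes that these rules name are not reported here. Coding sequences were aligned with MAFFT 7.526.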

Additional observations from a re-analysis of the deposited data

How the results depend on the processing

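Gsdma kept its LY6D call in every alternative except limma-trend on the deposited values (-2.58, adjusted p = 0.131), with -5.08 to -3.03 when 1 library was left out. The summed copies lost theirs there too (-1.98, adjusted p = 0.116) and kept it in the 20 others tried, chosen after seeing the data, with -2.29 to -1.38 when 1 library was left out. The single copies, not called as reported, were called with DESeq2 (-2.17 for Gsdmc, -1.70 for Gsdmc2, -1.58 for Gsdmc3) and as the sum (-1.67). Leaving out 1 library gave -2.84 to -1.77 for Gsdmc, -2.33 to -1.32 for Gsdmc2 and -2.10 to -1.22 for Gsdmc3, and all 3 were called without LY6D+ SCA1int replicate 2, LY6D+ SCA1low replicate 2 or LY6D- SCA1low replicate 1, and Gsdmc2 also without LY6D+ SCA1high replicate 2 or LY6D- SCA1high replicate 2. Replicate numbers, which go with a prefix of unstated meaning in the sample descriptions, did not pair the samples by their deviations: 15 correlations of same-numbered deviations ran from -0.20 to 0.13 (median 0.01), 2 of them above 0.1. The replicate block gave -2.65 for Gsdmc, -2.23 for Gsdmc2 and -1.92 for Gsdmc3, all called.

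Subtraction, devised after the data were seen, gave -4.02 for Gsdmc and -2.58 for Gsdmc3, both called, and -3.41 for Gsdmc2, not called (edgeR adjusted p = 0.0917). Its minimum of 10 genes was lowered from 20 after the pairs had been listed. With 20 genes, 8 pairs were subtracted, Gsdmc was called at -3.38, and Gsdmc3 at -2.11 was not (edgeR adjusted p = 0.0653).

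Within a level, where none of the 5 was called as reported, Gsdma was called at SCA1int unfiltered (-5.48), with DESeq2 (-5.40), without both libraries named below (-5.59) and in 7 of 12 fits without 1 library. It was called at SCA1high with DESeq2 (-5.57) and in 6 of those 12. At SCA1low Gsdmc was called with DESeq2 (-3.46) and Gsdmc2 without LY6D- SCA1low replicate 1 (-3.48). RLE scaling moved the median of all genes by -0.40 at SCA1low and by -0.12 in the LY6D average.

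Within SCA1high the sign for the copies was unsettled. Gsdmc2 was -0.23 by library size, -0.69 with the replicate block, -1.67 without LY6D- SCA1low replicate 2 and LY6D+ SCA1high replicate 2, -0.40 with limma-trend, -0.094 after subtraction and -0.097 with 20 genes. Gsdmc3 was -0.074 by library size, -0.39 with the replicate block, -1.02 without both libraries and -0.070 with limma-trend. Summed, the copies stood at 0.0040, the reverse of Gsdmc, and at -0.12 after subtraction with either minimum. Without 1 library the ranges were -2.29 to 0.29 for Gsdmc, -1.92 to 0.78 for Gsdmc2 and -1.27 to 0.80 for Gsdmc3. Gsdmd at SCA1int ran from -6.85 to 4.72, positive without LY6D- SCA1int replicate 1, and the interaction of Gsdmc2 was -0.16 without both libraries. The causes were not tested.

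Counts of called genes moved more. Averaged over SCA1, LY6D called 379 genes, against 2169 with DESeq2, 218 with limma-trend, 199 after subtraction and 182 with 20 genes (286 to 492 without 1 library). Within SCA1high 40 became 94 unfiltered, 1132 with DESeq2, 65 with the block, 87 without both libraries, 11 with limma-trend, 9 after subtraction and 8 with 20 genes (50 to 128). Within SCA1int 31 became 52 unfiltered, 520 with DESeq2, 73 without both libraries, 7 with limma-trend and 49 after subtraction (31 to 62). Within SCA1low 72 became 125 unfiltered, 1663 with DESeq2, 118 without both libraries and 43 with 20 genes (83 to 162). The interaction's 6 became 2 with RLE, 17 unfiltered, 494 with DESeq2, 22 without both libraries and 0 with limma-trend, where 768 had an unadjusted p below 0.05 (9 to 32). SCA1high against SCA1low called 185 genes, against 1303 with DESeq2 and 121 with limma-trend (185 to 304).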
